A study of Caenorhabditis elegans with 12 samples.

Results

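The mir-2 family of Caenorhabditis elegans is made up of the microRNA genes mir-2, mir-43, mir-250 and mir-797. Members were taken by name: every row of the deposited expression table whose microRNA comes from one of these 4 genes was included, whatever its level. The rule found 6 of the 213 measured mature microRNAs, namely cel-miR-2-3p, cel-miR-2-5p, cel-miR-250-3p, cel-miR-250-5p, cel-miR-43-3p and cel-miR-797-5p, written below without the species prefix. All 6 passed the filter on low values, and none was at 0 in any of the 12 libraries.

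Small RNA of whole worms was sequenced in 4 groups of 3 libraries, which the submitters describe as biological replicates. These were mutants with the mir-71 deletion allele n4115 at day 5 of adulthood, the same mutants at day 0, the wild-type strain N2 at day 5 and N2 at day 0. Animals of all 4 groups were grown at 20 °C and were moved around the last moult to plates with 0.1 mg/mL 5-fluorodeoxyuridine, which blocks DNA synthesis and so keeps offspring from developing. The mutants stand for loss of mir-71 by 1 allele in 1 strain. In RNA of whole worms, fewer cells of a type and less microRNA per cell cannot be told apart.

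A microRNA is cut from a hairpin precursor as a duplex of a 5p arm and a 3p arm. One arm, the guide, is usually kept in the Argonaute protein and pairs with messenger RNAs through its seed, while the other arm is mostly degraded. The mir-2 family is defined by a seed shared with the fly microRNAs miR-2 and miR-13, which in Drosophila recognise K-box motifs in the 3′ untranslated regions of Notch target genes and repress pro-apoptotic genes. The arms with this seed are the 3p arms of mir-2, mir-43 and mir-250 and the 5p arm of mir-797. In many invertebrates, copies of mir-2 lie in a cluster with mir-71, a microRNA that in C. elegans promotes long life.

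The 4 genes are on 4 chromosomes, and each has another microRNA gene close by in the WBcel235 annotation. mir-2 is on chromosome I at 9372768 to 9372865 on the minus strand, inside an intron of the protein-coding gene ppfr-1, which is read from the same strand. mir-71 is 7061 bases away on that strand, at 9379927 to 9380020, with 0 annotated ppfr-1 exons between the pair. mir-43 is on chromosome II at 11889910 to 11890007 on the plus strand, in intergenic sequence, 4 bases from mir-42 and 15 bases from mir-44.

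mir-250 is on chromosome V at 11769917 to 11770015 on the minus strand, 44 bases from mir-61, in the intergenic stretch between sel-11 and F55A11.4. mir-797 is on chromosome X at 4757109 to 4757197 on the plus strand, 40 bases from mir-247, also in intergenic sequence. mir-44, mir-61 and mir-247 belong to one seed family, the mir-44 family, so 3 of the 4 mir-2 family genes sit next to a member of it. mir-61 is known as a direct target of LIN-12/Notch signalling in vulval precursor cells, where it represses vav-1. mir-42 belongs to the mir-35 family of the germline and early embryo.

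The libraries held between 917170 and 4070663 reads over all measured microRNAs, as inferred from the steps in the deposited values. miR-71-3p was at 0 in all 6 mutant libraries and between 153 and 419 normalised reads in N2. miR-71-5p was not at 0 in the mutants: it stood between 52.5 and 189 normalised reads there (58 to 364 reads) and between 90221 and 173431 in N2. The 2 strains were thus apart in every library, and the source of the mutants' miR-71-5p reads was not tested. Library medians after the authors' scaling ran from 77.1 to 290 normalised reads, the highest being that of replicate 1 of the mutants at day 5. The median of all microRNAs was 0.98 higher (log2) in mutants than in N2 at day 5, so differences of the family are given below beside that median.

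The family spanned a wide range of levels, and the guides of mir-250 and mir-2 led it. miR-250-3p averaged 1333 normalised reads over the 12 libraries and ranked 59 of 213. miR-2-3p averaged 407 and ranked 76. These ranks compare reads of mature microRNAs, which are of nearly the same length, without a correction for how well each is captured.

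miR-250-5p averaged 56.6 normalised reads and ranked 134. Below it, miR-797-5p averaged 11.9 (rank 191), miR-2-5p averaged 11.5 (rank 193) and miR-43-3p averaged 6.49 (rank 208). The last 3 overlapped in level across the libraries and had no order beyond their spread, while miR-250-3p exceeded miR-2-3p in each of the 12 libraries. The guide arms miR-43-3p and miR-797-5p rested on 1 to 19 and 1 to 29 reads in a library, and miR-2-5p rested on 2 to 30.

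**Figure D1:**
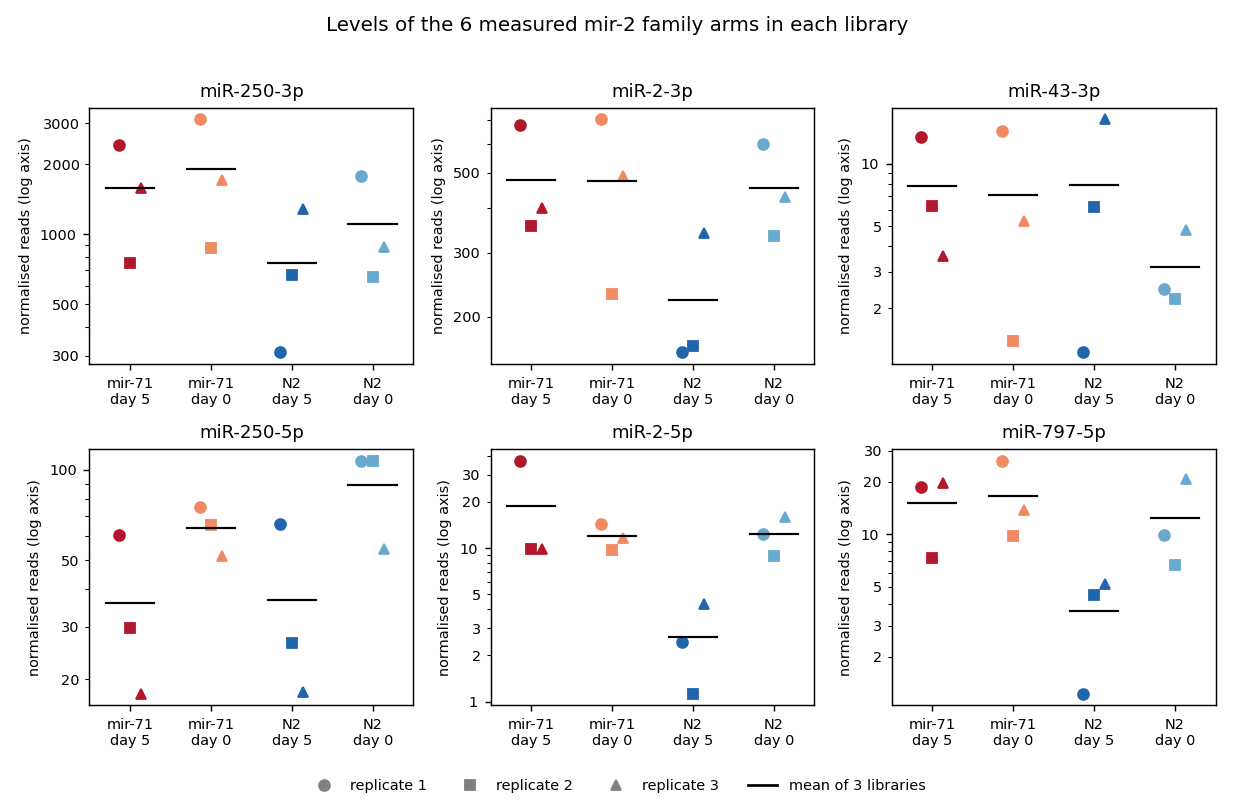
Normalised reads (log axis) of the 6 measured arms in each of the 12 libraries, by strain and day of adulthood; points are libraries, their shape the replicate number, and bars the group mean. For miR-2-5p the 3 N2 libraries at day 5, between 1.13 and 4.32, lie below all 9 others, and the 3 for miR-797-5p, between 1.23 and 5.19, do too.

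miR-250-3p, the most abundant guide of the family, stood at 2405, 748 and 1581 normalised reads in mir-71 mutants at day 5 and at 3112, 868 and 1708 in mutants at day 0. In N2 it stood at 310.0, 669 and 1279.6 at day 5 and at 1785, 651 and 876 at day 0. All 4 groups overlapped, and within each of the mutant groups and N2 at day 0 replicate 2 was the lowest. The group means were 1578 ± 829 and 1896 ± 1134 in the mutants and 753 ± 490 and 1104 ± 600 in N2, for day 5 and day 0 in each strain (SD over 3 libraries).

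miR-2-3p, the guide of mir-2, stood at 677, 357 and 399.9 normalised reads in mutants at day 5 and at 702, 231 and 489 in mutants at day 0. In N2 it stood at 159, 166 and 339.8 at day 5 and at 600.3, 334 and 429 at day 0. Every mutant library at day 5 was above every N2 library at day 5, although replicate 3 of N2 was close to the lowest mutant value. The mutant libraries at day 0 held 166 to 776 reads of it, so mir-2 itself was read in worms that carry the deletion of its neighbour.

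miR-797-5p, the guide of mir-797, stood at 18.5, 7.27 and 19.7 normalised reads in mutants at day 5 and at 26.2, 9.74 and 13.7 in mutants at day 0. In N2 it stood at 1.23, 4.50 and 5.19 at day 5 and at 9.92, 6.69 and 20.7 at day 0. The 3 N2 libraries at day 5 were the lowest of all 12, and the one with 1.23 held 1 read.

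miR-43-3p, the guide of mir-43, stood at 13.6, 6.23 and 3.58 normalised reads in mutants at day 5 and at 14.5, 1.39 and 5.27 in mutants at day 0. In N2 it stood at 1.23, 6.19 and 16.4 at day 5 and at 2.48, 2.23 and 4.79 at day 0. Its spread inside a group was as wide as that across groups, and N2 at day 5 held both the lowest and the highest library.

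miR-2-5p, the partner arm of mir-2, stood at 37.0, 9.87 and 9.84 normalised reads in mutants at day 5 and at 14.5, 9.74 and 11.6 in mutants at day 0. In N2 it stood at 2.45, 1.13 and 4.32 at day 5 and at 12.4, 8.92 and 16.0 at day 0. N2 at day 5 was separate from every other group, with 2, 2 and 5 reads in its libraries. Replicate 1 of the mutants at day 5 was the highest of the 12.

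miR-250-5p, the partner arm of mir-250, stood at 60.4, 29.6 and 17.9 normalised reads in mutants at day 5 and at 75.1, 65.4 and 51.6 in mutants at day 0. In N2 it stood at 66.2, 26.4 and 18.2 at day 5 and at 107, 107 and 54.3 at day 0. Both strains had 2 of their 3 day 5 libraries below all of their day 0 libraries, and replicate 1 at day 5 overlapped day 0 in each.

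With 5 days of adulthood in N2, 1 of the 6 arms passed the test: miR-2-5p fell. Its mean was 2.63 ± 1.61 normalised reads at day 5 and 12.4 ± 3.52 at day 0 (SD, n = 3 each), a log2 change of −1.95 ± 0.60 (SE, limma, Benjamini-Hochberg adjusted p = 0.0320). Among all microRNAs, 16% were called lower, 7.51% higher and 23.5% in either direction. The change was 1.47 further down than the median of all 213 microRNAs.

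miR-797-5p averaged 3.64 ± 2.12 normalised reads at day 5 and 12.5 ± 7.36 at day 0 in N2, with a log2 difference of −1.53 ± 0.63 (limma adjusted p = 0.0826). For miR-250-5p the difference was −1.40 ± 0.54 (adjusted p = 0.0699), and for miR-2-3p it was −1.08 ± 0.48 (adjusted p = 0.105). miR-250-3p differed by −0.65 ± 0.61 (adjusted p = 0.468) and miR-43-3p by 0.70 ± 0.82 (adjusted p = 0.580), both with intervals that include 0.

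Of the 6 arms, 5 were lower in the mean at day 5 in N2, as were 150 of all 213 microRNAs. The median log2 difference was −1.24 over the 6 arms and −0.48 over all microRNAs. The 3 values of each day did not overlap for miR-2-5p and miR-797-5p, both lower at day 5, and 34.7% of all microRNAs were separated in that direction, 12.2% in the other. The age call for miR-2-5p held under the 4 other scalings of the libraries (−1.58 to −2.07, limma adjusted p from 0.00234 to 0.0185). It was lost when any 1 of 5 N2 libraries was left out, namely all but replicate 3 at day 5, with an adjusted p between 0.0599 and 0.132. It was also lost with a pseudocount of 5 (adjusted p = 0.0540) and with the deposited log2 values (adjusted p = 0.0604).

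Scaling the libraries to equal totals gave 3 more calls in N2, all lower at day 5. Over all microRNAs that scaling called 67 lower and 27 higher. miR-2-3p then differed by −1.08 (limma adjusted p = 0.0129), miR-250-5p by −1.39 (adjusted p = 0.0154) and miR-797-5p by −1.54 (adjusted p = 0.0343). The same 3 were called when totals were made equal without mir-71 and the 5 most abundant microRNAs (the reduced totals), and none of them with the trimmed mean of M-values or with equal library medians. With the last pair of scalings the median of all microRNAs moved up by 0.51, and the split of calls over all microRNAs was 39 higher and 33 lower, and 40 higher and 35 lower, against 16 higher and 34 lower under the authors' scaling. Leaving out 1 library took the 50 calls over all microRNAs in N2 to 10 without replicate 2 at day 0, to 22 without replicate 2 at day 5 and to 26 without replicate 3 at day 0.

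In the mir-71 mutants, 0 of the 6 arms passed the age test by limma, 0 of them had an unadjusted p under 0.05, and 13.6% of all microRNAs were called, 9.86% higher and 3.76% lower at day 5. The 2 days overlapped in the mutants for every arm, while 18.3% of all microRNAs were separated upward and 8.45% downward. miR-2-5p averaged 18.9 ± 15.7 normalised reads at day 5 and 11.9 ± 2.38 at day 0, a log2 difference of 0.37 ± 0.60 (limma adjusted p = 0.722). miR-2-3p averaged 478 ± 174 at day 5 and 474 ± 236 at day 0 (0.09 ± 0.48, adjusted p = 0.907). Their 95% intervals ran from −0.90 to 1.64 and from −0.92 to 1.11, so that a 2-fold rise lay inside both intervals.

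For miR-250-5p the mutant means were 36.0 ± 22.0 at day 5 and 64.0 ± 11.8 at day 0, and the log2 difference of −0.97 ± 0.54 gave a limma adjusted p of 0.240. That arm was called lower at day 5 in the mutants with equal totals (−1.49, adjusted p = 0.0136) and with reduced totals (−1.57, adjusted p = 0.00726). miR-250-3p (−0.23 ± 0.61), miR-43-3p (0.35 ± 0.82) and miR-797-5p (−0.12 ± 0.63) had adjusted p values between 0.793 and 0.907. The median over the 6 arms was −0.01, beside 0.28 over all microRNAs.

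Same-numbered mutant libraries deviated together in replicates 1 and 2 (correlations 0.362 and 0.386) and little in replicate 3 (0.113). With the number as a block the calls over all microRNAs in the mutants went to 67, against 29 without it, with none among the 6 arms. Under the authors' scaling the 29 calls were 21 higher and 8 lower. They were 24 and 47 with equal totals, 22 and 50 with reduced totals, 24 and 32 with the trimmed mean and 47 and 28 with library medians. Leaving out 1 library gave 6 calls without replicate 3 at day 5 and 14 without replicate 3 at day 0 of the mutants, and 44 without replicate 1 at day 0.

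Between strains at day 5, the mutants had more miR-2-5p and more miR-797-5p than N2, and 22.7% of all 211 microRNAs other than those of mir-71 were called, every one of them higher in the mutants. miR-2-5p averaged 18.9 ± 15.7 normalised reads in the mutants and 2.63 ± 1.61 in N2, a log2 difference of 2.28 ± 0.60 (limma adjusted p = 0.0174), 1.30 above the median of all microRNAs. miR-797-5p averaged 15.2 ± 6.85 in the mutants and 3.64 ± 2.12 in N2, a log2 difference of 1.82 ± 0.63 (adjusted p = 0.0482), 0.84 above that median. These comparisons use the same 3 N2 libraries at day 5 as the age comparison in N2, so the low values of miR-2-5p there enter both.

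miR-2-3p averaged 478 ± 174 normalised reads in the mutants and 222 ± 102 in N2 at day 5, a log2 difference of 1.14 ± 0.48 with a limma adjusted p of 0.0835, and it lay 0.15 from the median of all microRNAs. With the replicate number as a block its adjusted p was 0.0261 and the calls over all microRNAs went to 96, against 48 without the block. For miR-250-3p the difference was also 1.14 (SE 0.61, limma adjusted p = 0.159). miR-43-3p differed by 0.26 ± 0.82 (adjusted p = 0.797).

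miR-250-5p averaged 36.0 ± 22.0 normalised reads in mutants and 36.9 ± 25.7 in N2 at day 5, a log2 difference of 0.00 with a 95% interval from −1.15 to 1.15 (limma adjusted p = 0.995). The 3 mutant values were above all 3 N2 values for miR-2-3p, miR-2-5p and miR-797-5p, and 41.2% of all microRNAs were separated in that direction, 0.474% in the other. Over the 6 arms the median difference was 1.14, and over all microRNAs it was 0.98.

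**Figure D2:**
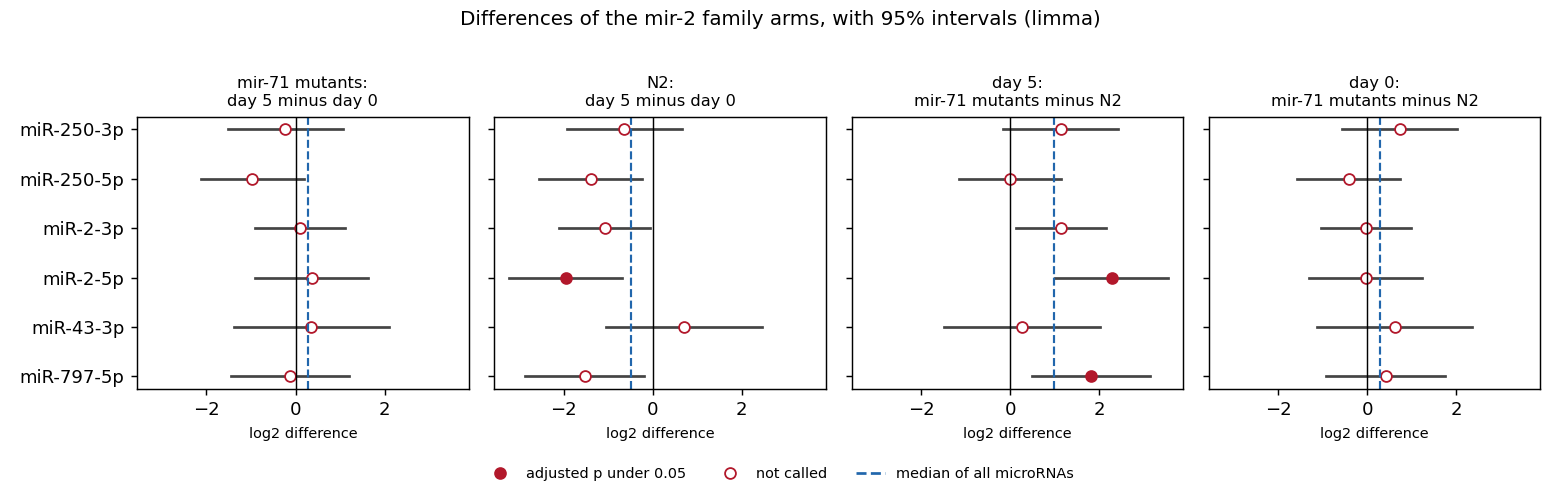
Log2 differences of the 6 arms in 4 comparisons (x axis), with 95% intervals from limma; filled points passed an adjusted p of 0.05, and the dashed line is the median of all microRNAs in that comparison. The filled points are miR-2-5p for age in N2 (−1.95) and miR-2-5p and miR-797-5p for strain at day 5 (2.28 and 1.82), and none is filled for age in the mutants or for strain at day 0.

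The strain difference of miR-2-5p at day 5 was 1.71, 1.69 and 1.62 (limma adjusted p from 0.0202 to 0.0349) with equal totals, reduced totals and library medians, and 1.42 with the trimmed mean (adjusted p = 0.0579). It lost its call without replicate 1 of the mutants at day 5 (1.68, adjusted p = 0.0861), without replicate 1 of N2 at day 5 (2.29, adjusted p = 0.0528) and without replicate 2 of N2 at day 5 (1.94, adjusted p = 0.0844). For miR-797-5p the call was lost under each of the 4 other scalings, with differences from 0.93 to 1.21 and adjusted p from 0.145 to 0.316, and when any 1 of 8 libraries was left out (1.36 to 2.01, adjusted p from 0.0540 to 0.169). The 4 libraries without which it stayed were replicate 2 of the mutants at day 5, replicates 1 and 2 of the mutants at day 0 and replicate 3 of N2 at day 5. It was also lost with a pseudocount of 5 (limma adjusted p = 0.0563) and with the deposited log2 values (adjusted p = 0.0569). The difference kept its sign in all of these, and so did that of miR-2-5p.

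The 48 calls at day 5 over all microRNAs, all higher in the mutants, were 23 higher and 5 lower with equal totals, 18 and 5 with reduced totals, 9 and 12 with the trimmed mean and 18 and 11 with library medians. Leaving out 1 library took them to 1 without replicate 1 of the mutants at day 5, to 3 without replicate 2 of N2 at day 5, to 6 without replicate 1 of N2 at day 5, to 25 without replicate 3 of the mutants at day 5 and to 75 without replicate 2 of the mutants at day 0.

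**Figure D3:**
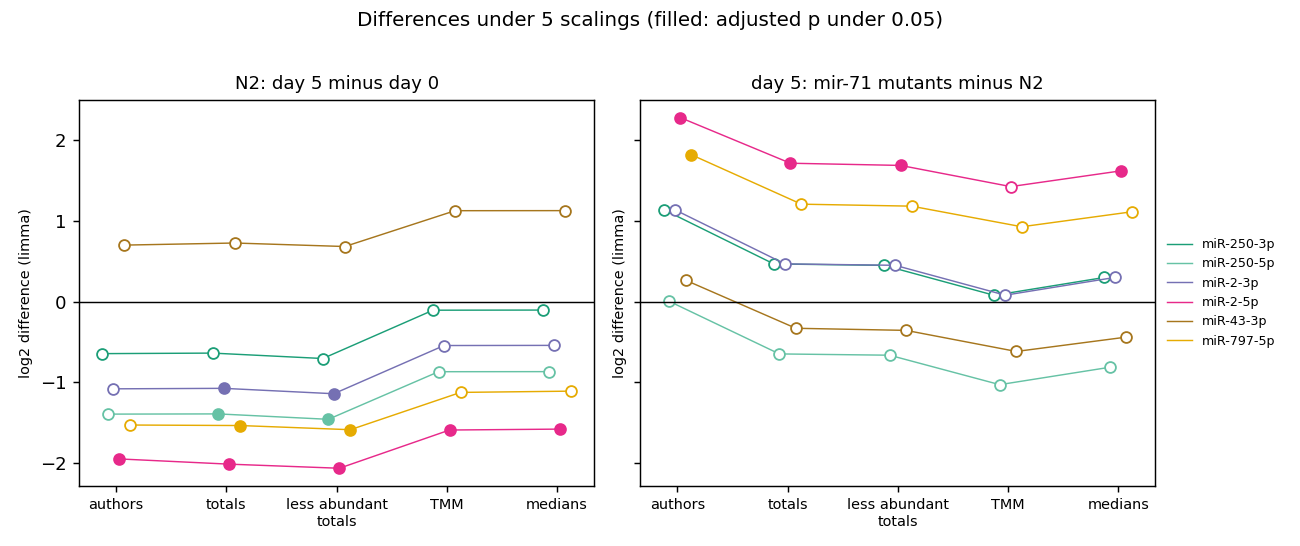
Log2 differences of the 6 arms (y axis) for age in N2 and for strain at day 5 under the authors' scaling and 4 others (x axis; less abundant totals, the reduced totals; TMM, trimmed mean of M-values); filled points had a limma adjusted p under 0.05, and points are shifted sideways to be seen. miR-2-5p runs from −1.58 to −2.07 with age and from 1.42 to 2.28 between strains, while miR-250-5p and miR-43-3p lie on either side of 0 between strains depending on the scaling.

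At day 0 the strains did not differ in any arm past the threshold. limma called 0 of 211 microRNAs (0%), and 5 of them, none in the family, had an unadjusted p under 0.05. No arm had separate values in the 2 strains at day 0, where 3.32% of all microRNAs were separated upward in mutants and 1.42% downward. miR-2-5p averaged 11.9 ± 2.38 normalised reads in the mutants and 12.4 ± 3.52 in N2, a log2 difference of −0.04 with a 95% interval from −1.31 to 1.23. miR-2-3p averaged 474 ± 236 in the mutants and 454 ± 135 in N2, also −0.04, with an interval from −1.05 to 0.98. The largest difference among the arms was that of miR-250-3p, 0.73 ± 0.61, and the limma adjusted p values of the 6 lay between 0.966 and 0.994.

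The age effect itself was compared between the strains. limma called 0 of 211 microRNAs (0%) for this difference, with 25 at an unadjusted p under 0.05. In the family, 1 arm was among the 25: for miR-2-5p the age effect was 2.32 ± 0.85 higher (log2) in the mutants than in N2 (unadjusted p = 0.0147, adjusted p = 0.398), the third place from the top of all microRNAs. For miR-797-5p the difference was 1.41 ± 0.89 (adjusted p = 0.521) and for miR-2-3p it was 1.18 ± 0.68 (adjusted p = 0.497). An age effect that passed in N2 and not in the mutants was thus not shown to differ between them.

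As a share of all microRNA signal in a library, which does not depend on the scaling, the 6 arms together held 0.0691% ± 0.0108 in mutants at day 5 and 0.113% ± 0.0188 in mutants at day 0. In N2 they held 0.0576% ± 0.0290 at day 5 and 0.0888% ± 0.0188 at day 0 (SD over 3 libraries). In the mutants every day 5 library was below every day 0 library, with 0.0640%, 0.0619% and 0.0815% at day 5 and 0.130%, 0.0929% and 0.115% at day 0. In N2 the days overlapped, with 0.0254%, 0.0653% and 0.0819% at day 5 and 0.107%, 0.0698% and 0.0893% at day 0. Of single microRNAs, 32.9% had shares that were separated downward with age in the mutants and 20.2% upward, against 37.6% downward and 14.1% upward in N2. Among the 6 arms, 2 were separated downward on this scale in the mutants, both arms of mir-250, and 4 in N2, namely miR-2-3p, miR-2-5p, miR-250-5p and miR-797-5p. These shares correspond to the scaling by equal totals, under which the age calls in the mutants ran mostly downward over all microRNAs too. miR-250-3p made up 57.4% to 78.9% of the family's signal in a library, and no test was made on these shares.

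Both arms of mir-250 come from one precursor and were read in the same library, so their ratio needs no scaling. miR-250-3p exceeded miR-250-5p 39.8-fold, 25.3-fold and 88.4-fold in mutants at day 5 and 41.5-fold, 13.3-fold and 33.1-fold in mutants at day 0. In N2 the ratio was 4.69, 25.3 and 70.5 at day 5 and 16.7, 6.08 and 16.1 at day 0. Groups that differ only in strain or only in day overlapped, and N2 at day 5 spread the widest. The mutants at day 5 all lay above N2 at day 0, a pair that differs in both strain and day.

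On the log2 scale, with 1 added to both arms, the ratio was 1.14 higher in mutants than in N2 over both days (two-sided exact permutation within day, p = 0.125) and 0.74 higher at day 5 than at day 0 over both strains (exact permutation within strain, p = 0.305). Within single groups of 3 against 3 the differences were 0.74, 0.75, 1.14 and 1.15, with exact permutation p values from 0.3 to 0.5, where 0.1 is the smallest possible. Adjusted over the 6 tests, each p was 0.5. Swapping strains within same-numbered pairs was a test added after the values were seen. For the strain difference over both days it gave a two-sided exact permutation p of 0.03125, the smallest that 64 permutations allow. After adjustment over 4 paired tests it was 0.125. Those 4 left out age in N2 and age over both strains, which were among the 6 tests above. The ratio was higher in the mutant library in 6 of 6 pairs, by 0.0034 to 3.08 (log2). In N2 the age difference in the ratio was −0.13 without replicate 3 at day 5.

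The arms of mir-2 were set side by side in the same way, a ratio chosen after the values were seen and therefore not tested. miR-2-3p exceeded miR-2-5p 18.3-fold, 36.2-fold and 40.6-fold in mutants at day 5 and 48.5-fold, 23.7-fold and 42.2-fold in mutants at day 0. In N2 the ratio was 65.0, 148 and 78.6 at day 5 and 48.4, 37.4 and 26.9 at day 0. The 3 N2 libraries at day 5 were above the other 9.

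Pooled over the libraries of a group, miR-2-5p made up 3.44% of the reads of both arms in mutants at day 5 (exact 95% interval 2.64% to 4.41%) and 2.36% in mutants at day 0 (1.64% to 3.28%). In N2 it made up 1.09% at day 5 (0.499% to 2.06%, 9 of 827 reads) and 2.59% at day 0 (1.73% to 3.73%). These intervals cover counting error only.

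**Figure D4:**
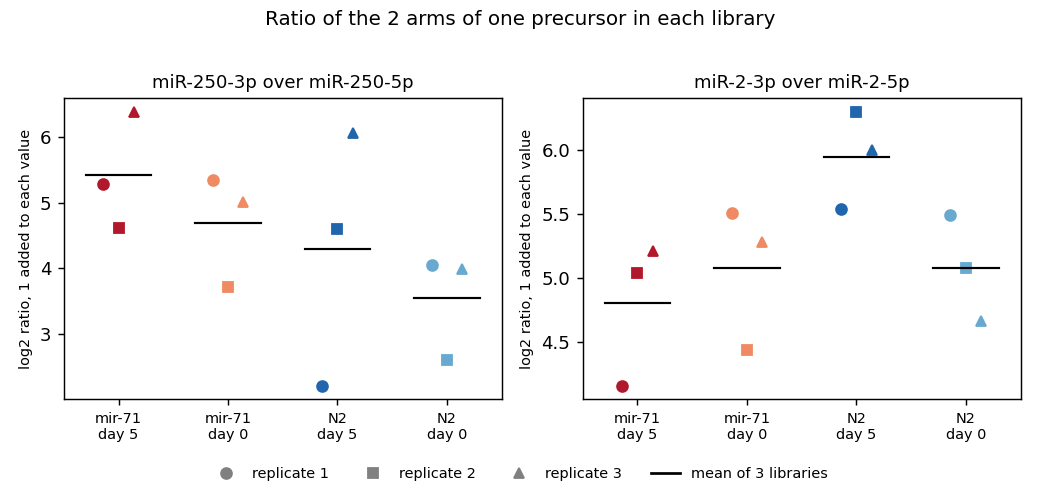
Log2 ratio of the 3p arm over the 5p arm (y axis, 1 added to each value) for mir-250 and mir-2 in each library, by strain and day; bars are means of 3 libraries. For mir-250 the groups overlap, except that mutants at day 5 lie above N2 at day 0. For mir-2 the 3 N2 libraries at day 5 lie above the 9 others.

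The microRNAs close to the family genes were measured in the same libraries. Of those below, mir-45 is not adjacent: it is 8870 bases from mir-43, on the minus strand. Of the 8 measured arms of mir-42, mir-44, mir-45, mir-61 and mir-247, limma called 1 under the authors' scaling, miR-42-3p, which rose with age in both strains. It averaged 434 ± 132 normalised reads at day 5 and 159 ± 79.2 at day 0 in mutants, a log2 change of 1.53 ± 0.44 (limma adjusted p = 0.0318). In N2 it averaged 388 ± 102 at day 5 and 124 ± 34.8 at day 0, a change of 1.64 ± 0.44 (adjusted p = 0.0148). Both calls held under all 4 other scalings.

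Other neighbours were called, all lower, under settings other than the authors' scaling. For miR-44-5p, the partner arm of mir-44, the strain difference at day 5 was −1.0 ± 0.57 (limma adjusted p = 0.184). With the replicate block its adjusted p was 0.0474, and under the 4 other scalings the difference was −1.66 to −2.04 (adjusted p from 0.00757 to 0.0101). Its age difference in the mutants was −0.99 ± 0.57 (limma adjusted p = 0.253), and −1.09 to −1.59 under the 4 other scalings (adjusted p from 0.00382 to 0.0401).

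miR-45-5p, the partner arm of mir-45, had an age difference of −0.78 ± 0.58 in the mutants (limma adjusted p = 0.350) and of −1.20 ± 0.58 in N2 (adjusted p = 0.130). With equal totals these were −1.31 (adjusted p = 0.00946) and −1.20 (adjusted p = 0.0129), and both were also called with reduced totals. Between strains at day 5 it differed by −0.34 ± 0.58 (limma adjusted p = 0.658), by −1.18 with library medians (adjusted p = 0.0488) and by −1.40 with the trimmed mean (adjusted p = 0.0446).

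miR-43-3p, 4 bases from mir-42 at the level of the precursors, held 27 reads beside 1536 of miR-42-3p over the mutants at day 5 and 22 beside 471 over those at day 0. In N2 it held 31 beside 1399 at day 5 and 7 beside 289 at day 0. miR-44-3p, on the other side, was several orders of magnitude more abundant, at 54958 ± 44475 normalised reads in the mutants at day 5 and 50547 ± 23754 in N2 at day 5. Its values were the same in every library as those of miR-45-3p, so reads of these copies cannot be separated.

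miR-61-3p stood above its neighbour miR-250-3p in all 12 libraries. The ratio of miR-250-3p to miR-61-3p was 0.0504, 0.0712 and 0.0807 in mutants at day 5 and 0.0785, 0.0738 and 0.0712 in mutants at day 0. In N2 it was 0.0144, 0.0541 and 0.0798 at day 5 and 0.0708, 0.0382 and 0.0478 at day 0. Replicate 1 of N2 at day 5 was the lowest of the 12, with 253 reads of miR-250-3p beside 17512 of miR-61-3p.

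miR-797-5p and its neighbour miR-247-3p were of similar abundance. miR-797-5p held 51 reads and miR-247-3p 52 over the mutants at day 5, and 49 and 84 over the mutants at day 0. In N2 they held 15 and 20 at day 5 and 27 and 39 at day 0. For miR-247-3p the strain difference at day 5 was 1.19 ± 0.67 (limma adjusted p = 0.178) and the age difference in N2 was −1.43 ± 0.67 (adjusted p = 0.120). With equal totals and with reduced totals miR-247-3p was called lower at day 5 in both strains, by −1.56 and −1.63 in the mutants (limma adjusted p = 0.0264 and 0.0198) and by −1.46 and −1.52 in N2 (adjusted p = 0.0291 and 0.0233).

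**Figure D5:**
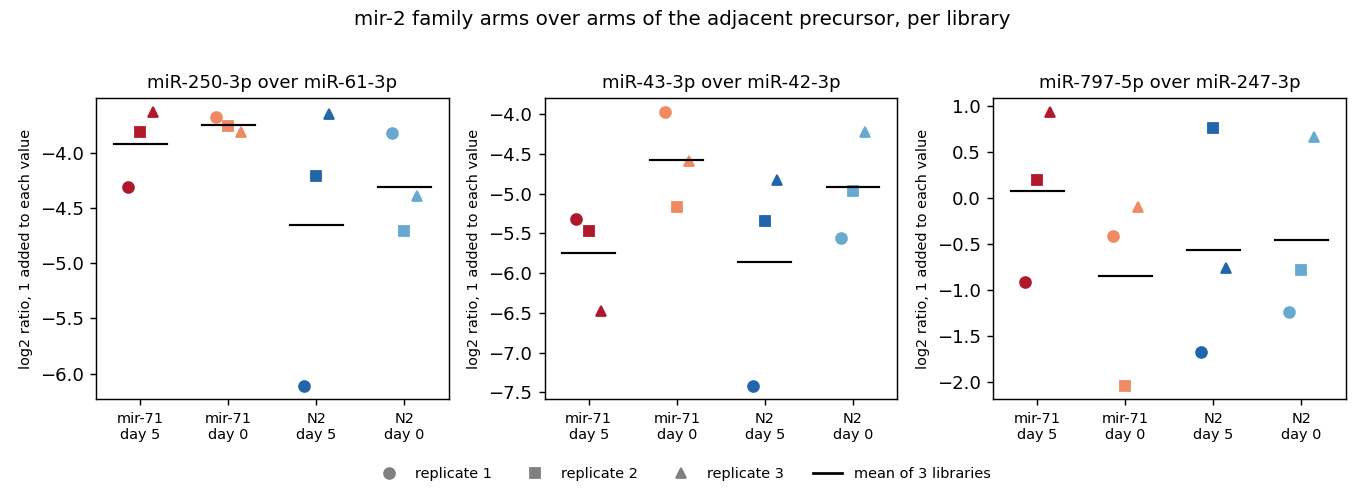
Log2 ratio (y axis, 1 added to each value) of a family guide arm to an arm of the adjacent precursor in each library, by strain and day; bars are means of 3 libraries. Replicate 1 of N2 at day 5 is the lowest point for miR-250-3p over miR-61-3p and for miR-43-3p over miR-42-3p, both ratios overlapping across strains.

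Profiles across the 12 libraries were compared by the root mean square difference of log2 values, each centred on its own mean, among 207 microRNAs outside the family. The nearest to miR-2-3p was miR-46-3p (0.221), followed by miR-794-5p (0.284) and miR-232-5p (0.300). The nearest to miR-250-3p were miR-67-3p (0.281), the intestinal miR-60-3p (0.299) and miR-251 (0.333). miR-61-5p held place 6 for miR-250-3p (0.427), and miR-61-3p held place 48.

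The scarce arms lay farther from any other microRNA. miR-86-5p was the nearest both to miR-797-5p (0.498) and to miR-2-5p (0.511). miR-74-5p was the nearest to miR-250-5p (0.442) and miR-231-3p to miR-43-3p (0.557). Inside the family miR-2-3p and miR-250-3p were 0.440 apart, and the arms of mir-250 were 1.21 apart. These distances share libraries, scaling and depth, and are a description.

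Markers of tissues were set beside the strain and age differences. Of 3 markers of muscle, intestine and glia, limma called 1 between strains at day 5: the intestinal miR-60-3p, 1.50 ± 0.52 higher in mutants (adjusted p = 0.0482), a call lost under the 4 other scalings (0.44 to 0.83). The difference was 1.42 ± 0.65 for muscle miR-1-3p (adjusted p = 0.0998) and 1.13 ± 0.50 for glial miR-228-5p (adjusted p = 0.0913). With the replicate block all 3 were called higher in the mutants at day 5. Their limma adjusted p values were then 0.0127 for miR-60-3p, 0.0133 for miR-1-3p and 0.0190 for miR-228-5p. The block called 96 of all microRNAs, and the median difference over all microRNAs was 0.98. Between strains at day 5, none of the 3 markers was called under the 4 other scalings. For age in N2 the differences were −1.21 ± 0.65 (miR-1-3p, limma adjusted p = 0.178), −0.82 ± 0.52 (miR-60-3p, 0.268) and −0.55 ± 0.50 (miR-228-5p, 0.441). There miR-1-3p was called lower with equal totals (−1.20, limma adjusted p = 0.0154) and with reduced totals (−1.27, adjusted p = 0.0229). Those scalings called 67 and 66 of all microRNAs lower. In the mutants none of the 3 was called with age under any scaling. The sum of the 3 ran from 97696 to 372394 normalised reads in mutants at day 5, from 72059 to 439490 in mutants at day 0, from 59104 to 84879 in N2 at day 5 and from 122301 to 169478 in N2 at day 0, with none at 0.

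With age, 4 of the 8 germline and embryo markers, miR-35-3p to miR-42-3p, rose in N2 and 2 rose in the mutants, and none fell. Among all microRNAs, 7.51% were called higher in N2 and 9.86% in the mutants. With the replicate block, which called 67 of all microRNAs in the mutants in either direction, 7 of the 8 rose there. With library medians, which called 47 of all microRNAs higher in the mutants, 7 of the 8 rose as well. miR-35-3p was among those called with the block (1.45, limma adjusted p = 0.00767 with the block and 0.174 without it). With equal totals 3 of the 8 rose in the mutants, and 2 did with reduced totals and with the trimmed mean. These 3 scalings called 22 to 24 of all microRNAs higher in the mutants. In N2 all 8 rose under each of the 4 other scalings, which called 25 to 40 of all microRNAs higher. Their sum ran from 108135 to 346010 normalised reads in mutants at day 5, from 14147 to 154730 in mutants at day 0, from 143403 to 238057 in N2 at day 5 and from 23098 to 97947 in N2 at day 0. miR-41-3p was at 0 in 1 mutant library and 2 N2 libraries at day 0. The part of the tissue mix in the differences of miR-2-5p, miR-797-5p and the other arms was not tested.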

How the data were processed

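Per the submitters' processing notes, reads were aligned with STAR 2.4.0h to WBcel235, and DESeq2 was used. How reads were trimmed and counted is not given in the sources used here. For 213 microRNAs in 12 libraries the authors deposited normalised counts, treated as a signal with no negative values. In each library a step was sought that gave whole numbers, within 0.01, for all but the most abundant values. The whole numbers thus follow from how the step was chosen. The step was taken as 1 read. That rests on the values alone, and a formal check for whole reads could not be passed because low values were too few, so read numbers, totals and intervals depend on it and no count test was run. The authors also deposited log2 values whose transformation is not stated; they served only as an alternative.

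Groups and replicate numbers came from the sample titles. The values kept the authors' scaling, 1 was added and log2 was taken, which understates changes of scarce microRNAs. A filter at a mean of 5 removed 0 microRNAs. limma 3.58.1 (R 4.3.3) was fitted to the 4 groups with an intensity trend, two-sided, and calls needed a p under 0.05 after Benjamini-Hochberg adjustment over all 213 microRNAs. Both mir-71 products were left out of counts for comparisons between strains. Groups held only 3 libraries, so limma pooled the spread of each microRNA over the 4 groups and moderated it by intensity. Its p-values set a difference between groups against that pooled spread between these few libraries, not against the spread of the compared groups alone. Exact permutation tests, which went through every regrouping of the libraries, compared arm ratios. A paired form, swapping same-numbered libraries, was added after the data were seen. SciPy 1.17.1 gave the exact intervals of the pooled arm shares. The limma fit was also run on simulated data with known changes, where noise was independent between microRNAs and between libraries. Shifts shared by a whole library were not simulated, so that run does not show how calls behave under them.

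Alternatives were the pseudocount, the filter, 4 scalings (equal totals, reduced totals, made equal without mir-71 and the 5 most abundant microRNAs, trimmed mean of M-values, library medians), the deposited log2 values, the compared groups alone, other limma priors, a replicate block and leaving out each library. Same-numbered libraries deviated together between strains at day 5 (correlations 0.402, 0.466 and 0.335) and at day 0 (0.56, 0.415 and 0.247) and across days in the mutants (0.362, 0.386 and 0.113). Across days in the mutants, replicate 3 at day 5 and replicate 1 at day 0, which do not share a number, reached 0.246. The pairing by number comes from the values, since the labels give no shared culture or day.

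Every measured arm of the 4 genes is named, with every measured arm of a precursor within 10 kb, the 3 microRNAs nearest in profile to each arm, and markers of muscle, intestine, glia, germline and embryo. Members and lists were chosen with earlier results of these data known. Positions are from Ensembl release 115, where 206 of the 213 microRNAs had a precursor of the same name. Sequences, and other microRNAs with the same seed, were not analysed here.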

Additional observations from a re-analysis of the deposited data

How the results depend on the processing

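Over the alternatives, 635 of 729 values of the family arms kept direction and side of the threshold, 25 kept only the direction and lost a call, 18 gained one and 51 changed sign, none of these being called; the causes were not tested. Signs changed as follows, in the order equal totals, reduced totals, trimmed mean and library medians. For age in the mutants, miR-2-3p gave −0.44, −0.52, −0.23 and −0.0069, and with the first pair of scalings miR-2-5p gave −0.14 and −0.22 and miR-43-3p −0.053 and −0.14. For strain at day 5, miR-250-5p gave −0.65, −0.67, −1.03 and −0.81, with −0.0015 for the deposited log2 values, and miR-43-3p gave −0.33, −0.36, −0.62 and −0.44. For the contrast of age effects (mutants minus N2), miR-250-3p gave −0.13, −0.14, −0.46 and −0.23 and miR-250-5p −0.10, −0.11, −0.42 and −0.20. Counts over all microRNAs under these scalings were 71, 72, 56 and 75 for age in the mutants, 28, 23, 21 and 29 for strain at day 5, and 94 and 91 for age in N2 with the first pair. With the compared groups alone they were 3 for age in the mutants and 79 for age in N2. In N2 that fit called miR-2-3p (limma adjusted p = 0.0390) and miR-250-5p (adjusted p = 0.0384).

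With a replicate block the counts were 67 for age in the mutants and 96 for strain at day 5. For age in N2, where same-numbered libraries correlated little (−0.0195, 0.128 and 0.054), the block gave 86. With the block miR-2-3p (limma adjusted p = 0.0342), miR-250-5p (0.00648) and miR-797-5p (0.0313) were called. It changed no other call in the family besides miR-2-3p at day 5. Among the neighbours it called miR-45-5p (adjusted p = 0.0188) and miR-247-3p (0.0416) for age in N2, both lower, and among markers miR-1-3p (0.0309), lower, and all 8 of germline and embryo, higher. For the log2 arm ratio of mir-250, swapping same-numbered libraries, added after seeing the data, left the strain difference over both days at 1.14 (exact permutation p = 0.03125, adjusted p = 0.125). A filter at a mean of 20 gave no value for miR-2-5p, miR-43-3p and miR-797-5p.

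Leaving out each library gave 6 to 44 calls for age in the mutants, 10 to 67 for age in N2, 1 to 75 for strain at day 5, and 0 for strain at day 0 and for the contrast of age effects. Signs changed within these ranges. For age in the mutants they were −0.35 to 0.45 (miR-2-3p), −0.24 to 0.67 (miR-2-5p), −0.70 to 0.23 (miR-250-3p), −0.33 to 1.02 (miR-43-3p) and −0.42 to 0.30 (miR-797-5p), and for age in N2 −0.0083 to 1.48 (miR-43-3p). For strain at day 5 they were −0.45 to 0.52 (miR-250-5p) and −0.51 to 0.97 (miR-43-3p). For strain at day 0 they were −0.39 to 0.41 (miR-2-3p), −0.24 to 0.15 (miR-2-5p) and −0.055 to 1.29 (miR-43-3p). For the contrast of age effects they were −0.11 to 0.91 (miR-250-3p), −0.023 to 0.94 (miR-250-5p) and −1.12 to 0.36 (miR-43-3p). The log2 arm ratio of mir-250 ranged from −0.13 to 1.79 for age in N2 and from 0.62 to 1.59 for strain over both days, where 1.59 was reached without replicate 3 of N2 at day 5 (exact permutation p = 0.04). Few reads limit miR-2-5p, miR-43-3p and miR-797-5p, where 1 read more or less moves a library's value visibly.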
